A study of Mus musculus with 9 samples.

Results

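Infarcted and treated hearts of one study were compared by the experiment number in the array titles. There were 3 arrays with experiment number 9 and 5 arrays with experiment number 1. The members were taken from the sample titles, 8 of the 9 arrays of the series, and the sham array of experiment 9 was left out of the comparison and is shown beside it. All hearts came from nude mice, which are immunodeficient and lack a normal thymus. To make chronic heart failure, the artery that supplies the front wall (the left anterior descending) had been tied for good, and mice whose ejection fraction was below 50% at 3 weeks were treated.

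The treatments were 500000 cardiovascular progenitor cells, the extracellular vesicles that 500000 such cells had secreted in 48 hours, or the medium alpha-MEM as control, and the sham heart received 3 needle punctures without injection. Injections of 10 µL were placed at 3 sites around the infarct through the closed chest, a route that the protocol describes for cell grafts. Whole hearts were frozen 6 weeks after treatment, and RNA was hybridised to Affymetrix arrays. Experiment 9 held 1 vesicle, 1 control and 1 cell array, all with VTS number 3 in their titles. Experiment 1 held 2 vesicle arrays (VTS1 and VTS2), 1 control array (VTS1) and 2 cell arrays (VTS1 and VTS2). The meaning of the experiment and VTS numbers is not stated in the labels, and every title says replicate 1. Nothing in the labels says that each array is a separate mouse, so p-values measure the spread between these arrays. The experiment and VTS3 coincide and cannot be told apart.

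An infarcted heart is a mixture. The surviving wall is made of cardiomyocytes, which are packed with sarcomeres and with mitochondria that burn fatty acids, while the lost muscle is replaced by a scar of collagens and matricellular proteins made by fibroblasts, in which macrophages persist. Atrial and ventricular muscle use different myosin light chains, and stressed ventricular muscle releases natriuretic peptides and takes up parts of the fetal gene programme. RNA of a whole heart reports the sum of these tissues, so that fewer cells of a type and less RNA per cell cannot be told apart.

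Values are log2 levels per gene, given as vesicle, control and cell array for experiment 9, and as vesicle VTS1, vesicle VTS2, control, cell VTS1 and cell VTS2 array for experiment 1. Differences are experiment 9 minus experiment 1 with treatment as a block, fitted with limma, and the value after ± is the standard error unless it is called an SD. A list score is an array's mean log2 level over the genes of a list, each gene first centred on its mean of the 8 arrays. The array medians lay between 4.89 and 4.92, and between 6378 and 6790 genes per array stood above the 95th percentile of the array's negative controls. The experiment 9 control and cell arrays had the fewest, 6489 and 6378, and the highest such percentiles, 7.26 and 7.28. The experiment 9 vesicle array, with 6749 genes and 7.20, lay within the range of experiment 1. Whether this bears on the differences was not tested. The heart label was borne out on every array: Myh6, the main myosin of adult mouse heart muscle, stood between 12.84 and 12.96, and cardiac troponin T (Tnnt2) between 13.11 and 13.16. Some arrays of experiment 1 stood apart. The vesicle VTS2 array had a lung gene score of 1.21 against -0.21 to -0.11 on the other 7 arrays, with the surfactant gene Sftpc at 9.75 against 4.28 to 4.52. The cell VTS2 array had an immediate early gene score of 0.54 against -0.23 to 0.012, and the cell VTS1 array a circadian clock score of -0.28 against -0.0095 to 0.13.

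No gene of the 30142 tested passed an adjusted p of 0.05 in limma, 0% in either direction, and the smallest adjusted p was 0.212. At an unadjusted p under 0.05 there were 3845 genes, or 12.8%, of which 1868 lay higher and 1977 lower in experiment 9. The split depended on scaling: 48.6% of those genes lay higher as deposited, 35.5% of 3185 after quantile normalization and 56.6% of 3483 with each array centred on its median. The experiments did not overlap for 2086 genes, or 6.92%, with every experiment 9 array above every experiment 1 array for 1260 (4.18%) and below for 826 (2.74%). Brighter genes tended to lie higher in experiment 9. Among the 6659 genes above the negative controls all 3 arrays lay above for 12.4% and below for 2.57%, with a median difference of 0.029 against -0.010 over all genes. Of all genes 41.0% lay higher in experiment 9. Dim genes tended to lie lower: 29.7% of those with a mean up to 5 lay higher, and 37.3% of those from 5 to 7.22. For the 831 genes with a mean above 10 the median difference was 0.045, 78.9% lay higher, and all 3 arrays lay above for 16.5%. These shares are the background for the counts that follow, and every gene difference is an estimate that did not pass the test.

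**Figure D1:**
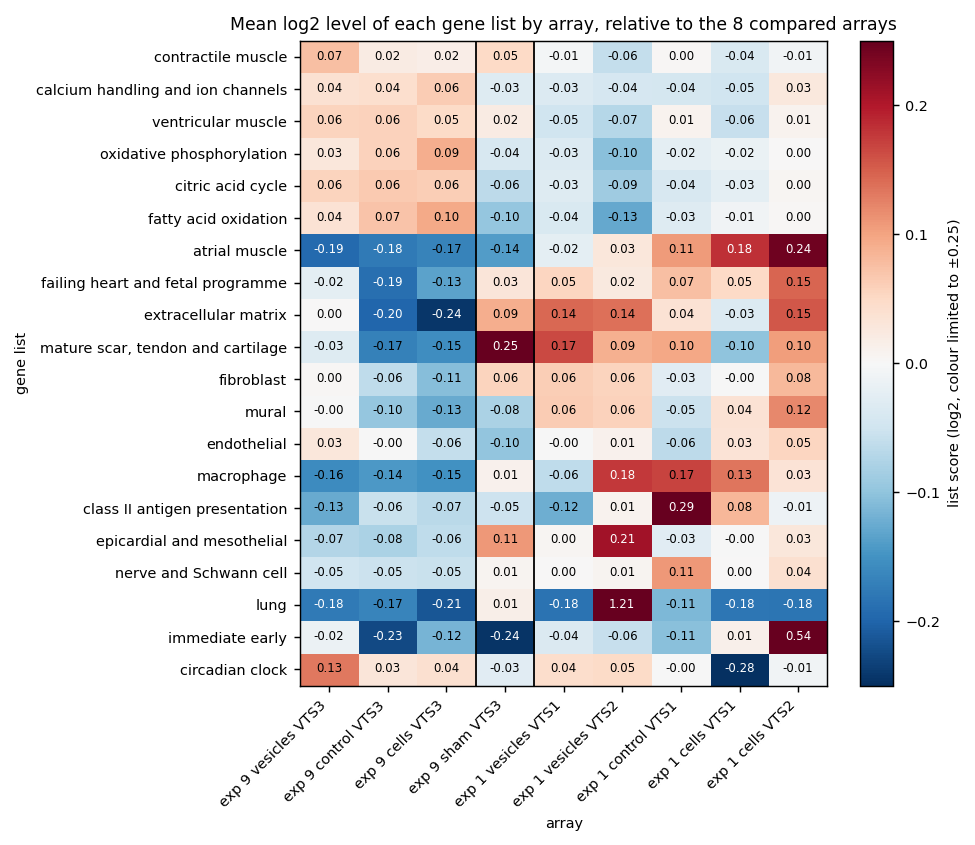
Score of 20 gene lists (rows, mean log2 level relative to the 8 compared arrays) on each of the 9 arrays (columns); the vertical lines set off the sham array, and colours are limited at 0.25 either way. The contractile, oxidative phosphorylation, citric acid cycle and fatty acid oxidation lists are above 0 on all 3 experiment 9 arrays, and the atrial and macrophage lists are below 0 on all 3.

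Contractile genes lay slightly higher in experiment 9 as deposited, about as often as other bright genes. Of 38 contractile genes 31 (81.6%) lay higher, against 78.9% of all genes above 10, with a median difference of 0.063, and all 3 experiment 9 arrays lay above experiment 1 for 10 of them (26.3%) and below for 1. The score was 0.074, 0.020 and 0.016 in experiment 9 and -0.0053, -0.059, 0.0021, -0.039 and -0.0090 in experiment 1. The experiments did not overlap, but the gap between the lowest and the highest of them was small. After quantile normalization the contractile median was 0.0090, with 21 of 38 higher.

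Myl2, the regulatory light chain of ventricular myosin, stood at 9.69, 9.76 and 9.74 in experiment 9 and at 9.46, 9.44, 9.59, 9.59 and 9.51 in experiment 1. Every experiment 9 array lay above every experiment 1 array, a difference of 0.20 ± 0.026 (limma adjusted p = 0.212). Myl3, the essential light chain of ventricular myosin, stood at 10.67, 10.71 and 10.81 against 10.52, 10.39, 10.57, 10.57 and 10.53, a difference of 0.21 ± 0.039 (limma adjusted p = 0.259), again without overlap. Myh6 differed by 0.075 ± 0.019, from 12.91 to 12.96 in experiment 9 and from 12.84 to 12.88 in experiment 1. Myh7, the slow myosin that rises in stressed mouse ventricle, differed by 0.0048 ± 0.071 and overlapped. Nebl, which anchors thin filaments at the Z-disc, differed by 0.13 ± 0.035, and Mylk3, the cardiac myosin light chain kinase, by 0.091 ± 0.030, both without overlap.

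The contractile genes at either end of the list had a wider spread in experiment 1. Tcap, telethonin, which caps titin at the Z-disc, stood at 10.58, 10.77 and 10.66 in experiment 9 and at 10.32, 10.36, 10.55, 9.86 and 9.93 in experiment 1 (0.43 ± 0.11, limma adjusted p = 0.321), and both cell arrays of experiment 1 were the lowest. Xirp1, a protein of intercalated discs, was the 1 gene that lay lower without overlap, from 9.37 to 9.44 against 9.54 to 10.12, where the cell VTS2 array was the highest (-0.29 ± 0.14, limma adjusted p = 0.430).

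Of 10 ventricular muscle genes 8 lay higher, with a median of 0.080, and 4 did not overlap. The median was 0.051 without the experiment 9 vesicle array. Genes of calcium handling and ion channels had 23 of 27 higher, with a median of 0.047, which is near the 0.045 of all genes above 10, and 6 of the 27 (22.2%) did not overlap. After quantile normalization that median was 0.0092, with 17 of 27 higher, and the ventricular median 0.033. Among them Hrc, a calcium-binding protein of the sarcoplasmic reticulum, differed by 0.20 ± 0.038 and stood from 10.07 to 10.22 in experiment 9 and from 9.87 to 9.99 in experiment 1. Cacna2d1, an auxiliary subunit of the L-type calcium channel, showed the widest difference of the list, at 9.27, 9.13 and 9.20 against 8.70, 8.92, 8.68, 8.998 and 8.998 (0.37 ± 0.076, limma adjusted p = 0.269). Gja1, the ventricular gap junction protein, stood from 7.15 to 7.25 against 7.002 to 7.14, a mean just under the negative-control limit. Cacna1c, the pore of that calcium channel, overlapped, with a difference of 0.059 ± 0.013. The ryanodine receptor Ryr2 (0.070 ± 0.019) and the calcium pump Atp2a2 (0.043 ± 0.016) overlapped as well. The 18 cardiac transcription factors had a median of -0.0056, with 8 higher and 10 lower.

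Genes of mitochondrial energy production lay mostly higher as deposited, by small amounts. All 24 citric acid cycle genes lay higher in experiment 9, as did 67 of 71 genes of oxidative phosphorylation and 28 of 31 of fatty acid oxidation, with medians of 0.085, 0.094 and 0.11. All 3 experiment 9 arrays lay above every experiment 1 array for 13, 36 and 15 of them, or 54.2%, 50.7% and 48.4%, against 12.4% of the genes above the negative controls and 16.5% of those above 10. No member of these lists lay below in that way. After quantile normalization the medians were 0.028, 0.050 and 0.045, with 15 of 24, 58 of 71 and 23 of 31 higher, so the counts depended on scaling.

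The respiratory chain hands electrons along its complexes to oxygen and drives ATP synthase. Ndufs1, a large subunit of complex I, stood at 10.42, 10.44 and 10.47 in experiment 9 and at 10.29, 10.22, 10.29, 10.32 and 10.30 in experiment 1. The experiments were apart by more than the spread within either, a difference of 0.16 ± 0.019 (limma adjusted p = 0.212). Cox8b, the muscle isoform of a cytochrome c oxidase subunit, stood at 9.39, 9.49 and 9.51 against 9.22, 9.22, 9.34, 9.34 and 9.34, a difference of 0.16 ± 0.012 (limma adjusted p = 0.212), without overlap. Ndufb3, a small complex I subunit, differed by 0.18 ± 0.023, and Ndufab1, the acyl carrier protein of mitochondria, by 0.17 ± 0.028. The mean of Ndufab1 lay just under the negative-control limit. Cox7a1, the heart and muscle isoform of another oxidase subunit, was among the brighter genes, at 11.94 to 12.08 against 11.83 to 11.997, and overlapped (0.088 ± 0.017).

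In the citric acid cycle, Suclg2, a subunit of succinyl-CoA synthetase, stood at 8.66, 8.66 and 8.85 in experiment 9 and from 8.50 to 8.62 in experiment 1 (0.18 ± 0.023). Fumarase (Fh1) differed by 0.11 ± 0.021 without overlap. Sdha, the flavoprotein of complex II, differed by 0.18 ± 0.029 and touched, since the experiment 9 control array at 10.09 equalled both vesicle arrays of experiment 1 to 2 decimals. Pdha1, which feeds pyruvate into the cycle, differed by 0.077 ± 0.017 as deposited and by -0.017 after quantile normalization, so its direction depended on scaling.

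For fatty acid oxidation, Decr1, which handles unsaturated fatty acids, stood at 9.59, 9.58 and 9.80 in experiment 9 and at 9.43, 9.26, 9.39, 9.45 and 9.45 in experiment 1, a difference of 0.27 ± 0.049 (limma adjusted p = 0.256). Eci2, an enoyl-CoA isomerase, stood at 8.86, 8.85 and 8.90 against 8.68, 8.53, 8.61, 8.70 and 8.70 (0.23 ± 0.038, limma adjusted p = 0.230). Neither gene overlapped, and in both the vesicle VTS2 array was the lowest. Hadha, a subunit of the trifunctional protein, differed by 0.11 ± 0.017 without overlap, Ech1 by 0.16 ± 0.026 with overlap. Cpt1b, the carnitine transferase that admits fatty acids to muscle mitochondria, overlapped (0.057 ± 0.048).

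Genes that respond to the fatty acid sensors of the PPAR family were mixed, 9 of 14 higher with a median of 0.055, and the median was 0.018 without the experiment 9 vesicle array as well as after quantile normalization. Ucp3, a mitochondrial uncoupling protein, stood at 6.99, 7.36 and 7.10 against 6.51 to 6.77 (0.44 ± 0.083), below the negative-control limit on most arrays. Fabp4, a fatty acid carrier of capillary endothelium and fat, stood at 10.08, 10.02 and 9.90 against 9.72 to 9.88 (0.18 ± 0.032). Pdk4, which blocks pyruvate entry, overlapped and ran from 10.61 to 11.15 within experiment 9 alone. The 17 glycolysis genes had 8 higher and 9 lower, with a median of -0.018, and Pgam1, a phosphoglycerate mutase, lay lower on all 3 arrays (8.96 to 9.15 against 9.30 to 9.79).

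**Figure D2:**
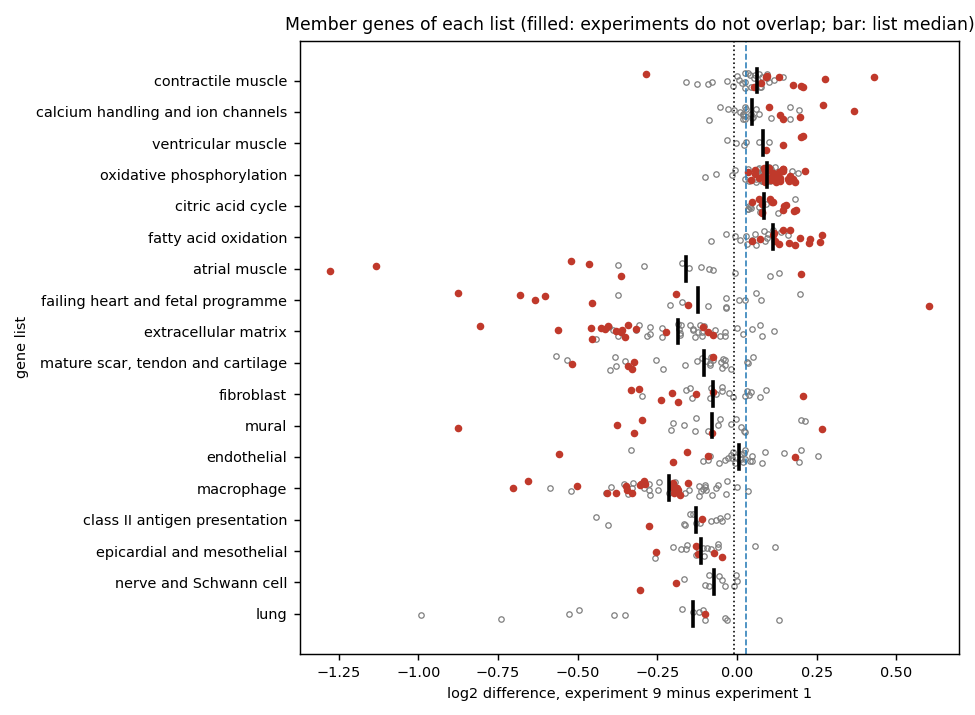
Log2 difference, experiment 9 minus experiment 1 (x axis), of every measured gene in 18 lists (rows); filled points mark genes whose experiments do not overlap, bars mark list medians, and the dotted and dashed lines mark the medians of all genes (-0.010) and of genes above the negative controls (0.029). The 71 points of oxidative phosphorylation form a narrow band with a median of 0.094, while the matrix, atrial and macrophage lists spread widely to the left.

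Extracellular matrix genes lay lower in experiment 9, with wide spread between its arrays. Of 53 genes 48 lay lower, with a median of -0.18, and all 3 arrays lay below experiment 1 for 17 (32.1%), against 2.74% of all genes and at most 3.64% in any brightness range. The score was 0.00063, -0.20 and -0.24 in experiment 9 and 0.14, 0.14, 0.037, -0.033 and 0.15 in experiment 1. The experiment 9 vesicle array was thus level with the middle of all arrays, above the cell VTS1 array of experiment 1, and the scores overlapped.

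Collagen fibres form the bulk of a scar and are cross-linked by lysyl oxidases. Loxl1, a lysyl oxidase that also acts on elastin, stood at 8.43, 8.20 and 8.29 in experiment 9 and at 8.78, 8.78, 8.75, 8.66 and 8.91 in experiment 1. The experiments did not overlap, a difference of -0.46 ± 0.068 (limma adjusted p = 0.219). Lox itself stood at 6.57, 6.08 and 6.24 against 6.80, 6.83, 6.94, 6.76 and 7.03 (-0.56 ± 0.13), without overlap and below the negative-control limit. Col5a2, which helps to start collagen fibrils, differed by -0.34 ± 0.051, and Col14a1, a fibril-associated collagen, by -0.36 ± 0.055, neither overlapping. Mmp14, a membrane-bound collagenase, stood at 7.34, 7.14 and 7.08 against 7.53, 7.72, 7.57, 7.59 and 7.60 (-0.41 ± 0.063). The list's widest difference was in Thbs1, the matricellular protein thrombospondin 1, at 7.80, 7.22 and 7.57 against 8.43, 8.53, 8.08, 8.01 and 8.93 (-0.81 ± 0.22, limma adjusted p = 0.328). It did not overlap, and its spread within each experiment was wider than that of Loxl1.

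The main scar collagens overlapped. Col3a1 stood at 9.11, 8.92 and 8.80 in experiment 9 and at 9.36, 9.43, 9.27, 9.10 and 9.50 in experiment 1, a difference of -0.38 ± 0.10 (limma adjusted p = 0.316). Col1a1 stood at 9.27, 8.86 and 8.86 against 9.37, 9.40, 9.34, 9.02 and 9.43 (-0.31 ± 0.12, limma adjusted p = 0.389). In both genes the experiment 9 vesicle array lay above the cell VTS1 array, which was the lowest of experiment 1. Postn (periostin), which activated fibroblasts secrete into the matrix, stood at 9.54, 8.92 and 8.97 against 9.78, 9.72, 9.52, 9.20 and 9.47 (-0.37 ± 0.093, limma adjusted p = 0.309), where the experiment 9 vesicle array lay above 3 arrays of experiment 1.

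Genes of mature scar, tendon and cartilage had 27 of 30 lower, with a median of -0.10. The 16 members above the negative controls had a median of -0.33, which is a description, since the limit leaves out dim genes. Of all 30, 5 (16.7%) lay lower without overlap. Itgbl1, a secreted protein with integrin-like repeats, stood at 8.09, 7.85 and 7.75 against 8.34, 8.36, 8.21, 8.11 and 8.13, a difference of -0.33 ± 0.025 (limma adjusted p = 0.212), with only 0.02 between the nearest arrays. Sfrp1, a secreted antagonist of Wnt signalling, stood at 8.19, 8.13 and 8.08 against 8.68, 8.66, 8.73, 8.34 and 8.80 (-0.52 ± 0.11), without overlap, and its relative Sfrp2 differed by -0.34 ± 0.085. Of 25 fibroblast genes 18 lay lower, with a median of -0.075, and 7 (28.0%) did not overlap on that side. Cd248, a surface protein of stromal cells, stood from 7.47 to 7.60 against 7.66 to 7.999 (-0.31 ± 0.056).

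Atrial muscle genes included Sln and Myl7, the widest differences among the genes named by rule. Sln, sarcolipin, the small peptide that restrains the calcium pump in atrial muscle, stood at 6.78, 6.81 and 7.15 in experiment 9 and at 7.78, 7.88, 8.08, 8.59 and 8.74 in experiment 1. The experiments did not overlap, and within experiment 1 both cell arrays were the highest. The difference was -1.28 ± 0.10, 2.42-fold (limma adjusted p = 0.212). All 3 experiment 9 values of Sln lay under the negative-control limits of their own arrays, 7.20, 7.26 and 7.28. Its mean passed that limit through experiment 1, so the fold is uncertain on the dim side. Myl7, the atrial myosin regulatory light chain, stood at 7.21, 7.31 and 7.61 against 8.003, 8.13, 8.55, 8.96 and 8.93, a difference of -1.13 ± 0.10, 2.19-fold (limma adjusted p = 0.212). It followed the same order of treatments as Sln, vesicles lowest and cells highest in both experiments. Among the 13607 genes not tied on 3 or more arrays, these were the 2 genes that passed, with limma adjusted p of 0.0336 for Sln and 0.0445 for Myl7. That filter was drawn from the values of these same arrays. With filters on brightness no gene passed. The smallest limma adjusted p was 0.0527 among genes above the negative controls and 0.129 among genes above the median gene. Leaving out any 1 array kept the difference between -1.41 and -1.14 for Sln and between -1.29 and -1.02 for Myl7.

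Sln and Myl7 put the 8 arrays in the same order apart from the cell arrays of experiment 1, and the promoter of Myl7 is shown for what its letters hold. It is the 250 bases before the RefSeq start, GRCm38.p6 chr11:5898783-5899032, minus strand, with a CArG box, the site that serum response factor binds, in capitals. No entry for Sln was found in the promoter table.

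Myl7: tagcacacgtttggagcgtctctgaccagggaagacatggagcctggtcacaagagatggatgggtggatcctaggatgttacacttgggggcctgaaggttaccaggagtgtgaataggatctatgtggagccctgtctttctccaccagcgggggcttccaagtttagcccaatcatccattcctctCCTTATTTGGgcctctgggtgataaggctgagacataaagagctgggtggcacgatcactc

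The box begins 61 bases before the start. CArG boxes were searched on both strands in their exact form, which stands in 1.47% of 32851 such windows. A match is a description of letters and not of a bound site.

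Of all 16 atrial genes 13 lay lower, with a median of -0.16, and 5 (31.2%) lay lower without overlap. Myl4, the atrial essential light chain, stood at 6.40 on all 3 experiment 9 arrays and at 6.63, 6.63, 6.81, 6.83 and 6.88 in experiment 1 (-0.36 ± 0.046), all under the negative-control limit. Dkk3 (-0.46 ± 0.089) and Mybphl (-0.52 ± 0.11) did not overlap either. Kcnj5, a subunit of the acetylcholine-gated potassium channel of atrium, lay the other way, at 7.29, 7.28 and 7.35 against 7.04 to 7.17 (0.20 ± 0.020). Its mean lay just under the negative-control limit. Nppa, the atrial natriuretic peptide, which failing ventricle makes too, overlapped at 13.19, 12.96 and 12.93 against 13.15 to 13.26 (-0.17 ± 0.057). The list score was -0.19, -0.18 and -0.17 in experiment 9 and -0.025, 0.029, 0.11, 0.18 and 0.24 in experiment 1, and did not overlap. The median was -0.091 without the experiment 9 cell array, and the same without both cell arrays of experiment 1, since each leaves no cell pair to compare.

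Genes of the failing heart were mostly lower. Of 20 genes 14 lay lower, with a median of -0.12, and 7 (35.0%) lay lower without overlap. Nppb, brain natriuretic peptide, which stretched ventricular muscle secretes, stood at 10.10, 9.71 and 9.80 in experiment 9 and at 10.41, 10.24, 10.72, 10.45 and 10.68 in experiment 1. The vesicle arrays lay nearest to each other across the experiments, and there was no overlap (-0.63 ± 0.16, limma adjusted p = 0.309). Rcan1, a calcineurin inhibitor that calcineurin signalling itself induces, stood at 9.75, 9.35 and 9.58 against 10.25, 10.11, 10.08, 10.39 and 10.57 (-0.68 ± 0.10, limma adjusted p = 0.222). Tnfrsf12a, the receptor of the cytokine TWEAK, stood at 8.15, 7.83 and 7.96 against 8.45, 8.40, 8.65, 8.65 and 8.84 (-0.60 ± 0.12, limma adjusted p = 0.265), without overlap. Ces1d, a lipid carboxylesterase, lay the other way, at 7.43, 7.45 and 7.79 against 6.85 to 7.10 (0.60 ± 0.074), with a mean just under the negative-control limit.

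Acta2, smooth muscle actin, which also marks myofibroblasts and the fetal heart, stood at 9.39, 9.08 and 9.12 in experiment 9 and at 10.41, 10.24, 9.81, 9.81 and 10.29 in experiment 1. The difference was -0.88 ± 0.12, 1.84-fold (limma adjusted p = 0.213), and no array overlapped. The smooth muscle genes Tagln (7.33 to 7.47 against 7.65 to 7.81), Cnn1 (6.33 to 6.36 against 6.59 to 6.90) and Myl9 (8.26 to 8.28 against 8.37 to 8.87) lay lower as well without overlap. Cnn1 stood under the negative-control limit. The mural list as a whole had 15 of 21 lower, with a median of -0.077, or -0.023 without the experiment 9 cell array. Abcc9, a potassium channel subunit of pericytes and heart muscle, lay higher (0.27 ± 0.070), so the list did not lie to one side. Myl9 is one of the smooth muscle genes whose promoter carries a CArG box, chosen after its values were seen. Its window is GRCm38.p6 chr2:156775214-156775463, plus strand, and the box, in capitals, begins 161 bases before the start.

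Myl9: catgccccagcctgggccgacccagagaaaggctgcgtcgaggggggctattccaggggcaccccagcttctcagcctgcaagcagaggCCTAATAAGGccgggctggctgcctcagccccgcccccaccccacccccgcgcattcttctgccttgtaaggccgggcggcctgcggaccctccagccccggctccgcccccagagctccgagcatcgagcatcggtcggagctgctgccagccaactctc

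The Acta2 window held no exact match but 2 runs that differ from the CArG box by 1 of its 10 letters, CCCTATATGG and CCTTGTTTGG, beginning 84 and 34 bases before the start. The Myl9 window held such a run as well, CCTTGTAAGG, beginning 99 bases before the start. Such near matches stand in 17.5% of all windows. The windows of Cnn1 and Nppb held neither form in these 250 bases, which says nothing of sites elsewhere.

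**Figure D3:**
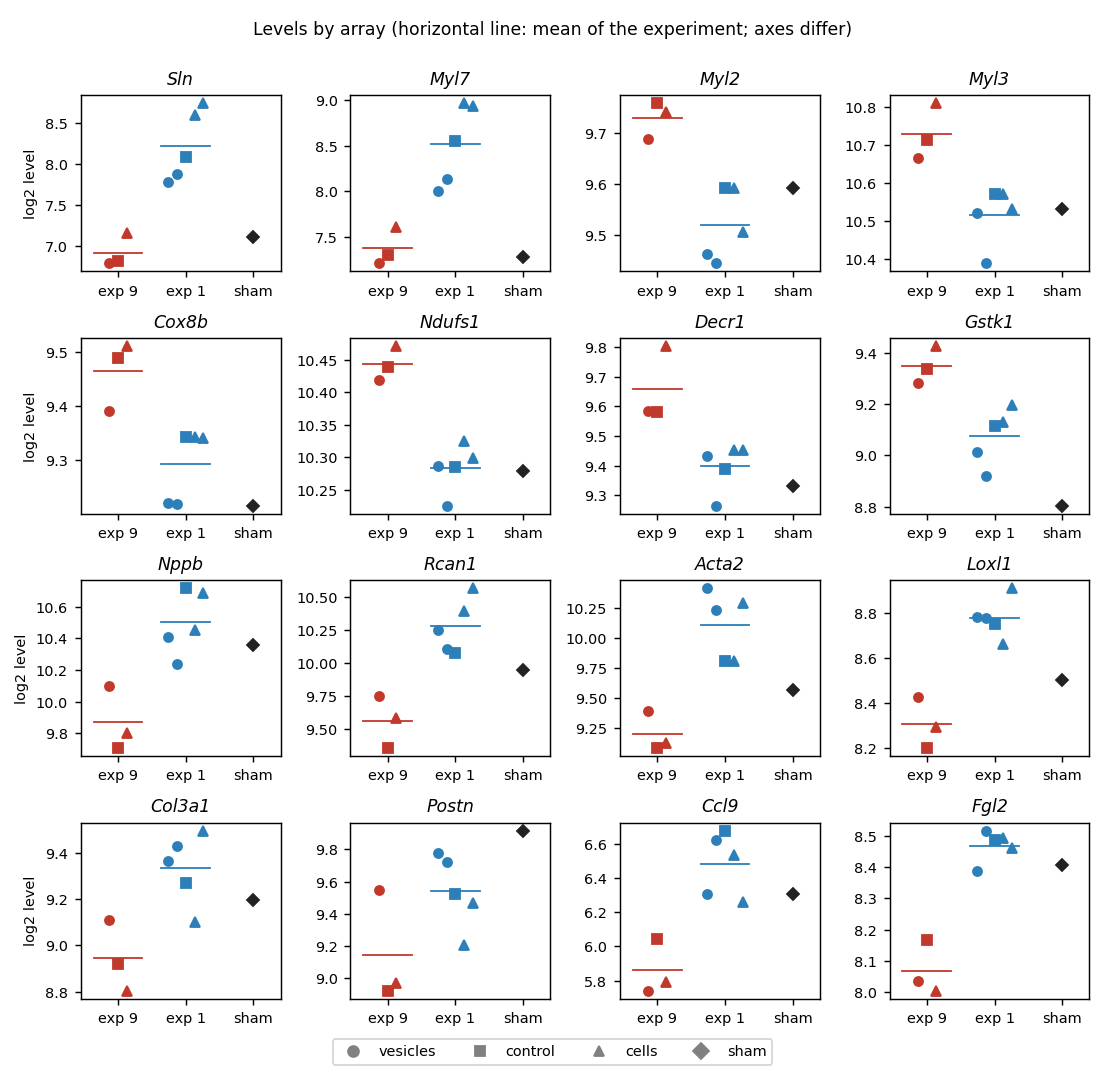
Log2 levels (y axes, which differ between panels) of 16 genes in experiment 9, experiment 1 and the sham heart (x axis); symbols give the treatment, and lines the mean of an experiment. Sln, Myl7, Acta2 and Rcan1 are lower on every experiment 9 array, Myl2, Ndufs1 and Decr1 higher, while Col3a1 and Postn overlap.

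Macrophage genes lay lower in experiment 9. Of 53 genes 52 lay lower, with a median of -0.21, and 19 (35.8%) lay lower without overlap, against 2.74% of all genes. The list was dim, with 12 of 53 genes above the negative controls, and for genes just under that limit (a mean of 5 to 7.22) the share below was 3.64%. The score was -0.16, -0.14 and -0.15 in experiment 9 and -0.064, 0.18, 0.17, 0.13 and 0.034 in experiment 1, so that the vesicle VTS1 array of experiment 1 came nearest to experiment 9.

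Ccl9, a chemokine of myeloid cells, stood at 5.74, 6.05 and 5.79 in experiment 9 and at 6.31, 6.62, 6.68, 6.54 and 6.26 in experiment 1. The difference was -0.66 ± 0.099 (limma adjusted p = 0.222), without overlap, at levels below the negative-control limit. C1qb, a chain of complement C1q that tissue macrophages make, was brighter, at 7.94, 7.60 and 7.58 against 8.01, 8.17, 8.20, 8.10 and 8.10 (-0.41 ± 0.095). Its partner chain C1qa overlapped, at 6.95, 6.96 and 6.70 against 6.90 to 7.21. Mrc1, the mannose receptor, stood at 8.02, 7.92 and 8.09 against 8.11 to 8.58 (-0.30 ± 0.099) and Csf1r, the receptor on which macrophages depend, at 7.34 to 7.51 against 7.52 to 7.72 (-0.20 ± 0.063), both without overlap. Lyz2, the lysozyme of myeloid cells and among the brighter genes of the list, stood at 9.21, 9.36 and 9.24 against 9.58, 10.37, 10.17, 9.90 and 9.70 (-0.70 ± 0.19, limma adjusted p = 0.330), with the 3 experiment 9 arrays close together below all of experiment 1.

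Adgre1, which encodes the F4/80 antigen, stood at 5.77 to 5.94 against 6.01 to 6.39 (-0.29 ± 0.11). Cd68, a lysosomal protein of macrophages, overlapped (-0.27 ± 0.13), as did Ccr2, the receptor of recruited monocytes (-0.28 ± 0.11). The means of Adgre1, Cd68, Ccr2 and C1qa over the 8 arrays lay under the negative-control limit, that of Ccr2 far under it at 4.17. Lyve1, carried by resident macrophages and lymphatic endothelium, stood at 7.77, 7.90 and 7.82 against 8.24, 8.58, 7.86, 8.17 and 8.52 (-0.41 ± 0.17), and the control array of experiment 1 lay within the range of experiment 9. All 15 genes of class II antigen presentation lay lower, with a median of -0.13, or -0.059 without either control array. No more than 1 of the 15 stood above the negative controls. The scores overlapped, from -0.13 to -0.055 in experiment 9 and from -0.12 to 0.29 in experiment 1. The experiment 1 control array stood out there with a score of 0.29 and H2-Ab1 at 8.55 against 7.17 to 7.97 on the other 7 arrays.

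Endothelial genes were level as a group, with 16 of 32 higher and 16 lower and a median of 0.0055. Plvap, of fenestrated and activated endothelium, stood at 6.90, 6.74 and 6.74 against 7.24, 7.59, 7.35, 7.24 and 7.36 (-0.56 ± 0.087), and von Willebrand factor (Vwf) at 7.38 to 7.40 against 7.51 to 7.64 (-0.20 ± 0.026). Neither gene overlapped, and the mean of Plvap lay just under the negative-control limit. Fgl2, a fibrinogen-like protein, stood at 8.03, 8.17 and 8.004 against 8.39, 8.52, 8.49, 8.49 and 8.46 (-0.41 ± 0.042). Of the 20 epicardial and mesothelial genes 18 lay lower, with a median of -0.11, or -0.071 without the vesicle VTS2 array that carried lung genes. No more than 1 of these 20 stood above the negative controls.

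Markers of other tissues differed as well. Of 15 lung genes 14 lay lower, with a median of -0.14, or -0.027 without the vesicle VTS2 array. Skeletal muscle genes had a median of -0.011, and 2 of 19 stood above the negative controls. All 12 nerve and Schwann cell genes lay lower (median -0.071), none of them above the negative controls. Their part in the muscle, matrix and macrophage differences was not tested. Without the vesicle VTS2 array, as without each of the other 7, the median stayed between 0.084 and 0.10 for oxidative phosphorylation, between -0.23 and -0.15 for matrix and between -0.28 and -0.19 for macrophages.

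**Figure D4:**
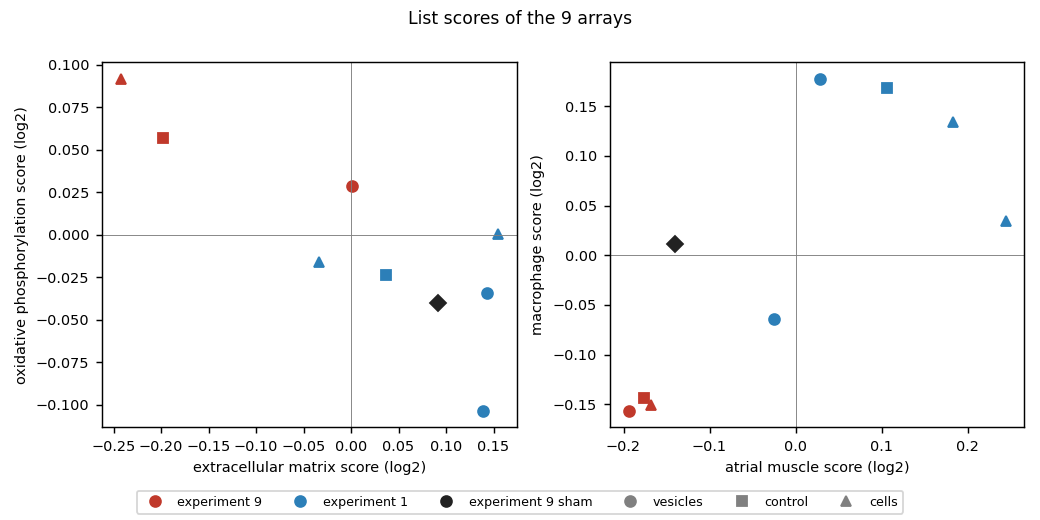
List scores (mean log2 level relative to the 8 compared arrays) of each of the 9 arrays, oxidative phosphorylation against extracellular matrix on the left and macrophage against atrial muscle on the right; colour gives the experiment and symbol the treatment. The experiment 9 vesicle array has a matrix score of 0.00063 within the range of experiment 1, and the 3 experiment 9 arrays lie together at the lower left of the atrial and macrophage plot.

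Within each treatment the arrays of the experiments can be set side by side, 1 against 1 for control and 1 against 2 for vesicles and for cells, without a test. Genes of oxidative phosphorylation had a median difference of 0.072 for control, 0.105 for vesicles and 0.109 for cells, with 65, 67 and 66 of 71 higher. Fatty acid oxidation followed with 0.11, 0.094 and 0.13. The contractile median was 0.016 for control, 0.10 for vesicles and 0.046 for cells. Matrix genes had medians of -0.21, -0.11 and -0.32, macrophage genes of -0.31, -0.17 and -0.22, and atrial genes of -0.17, -0.10 and -0.28. Over all genes the median was -0.0034 for control and 0 for vesicles and for cells. The direction was the same in all 3 treatments for each of these 6 lists, while the size of the matrix and atrial differences was widest among the cell arrays. Whether the treatments differed in this was not tested.

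Within experiment 1, VTS2 was set against VTS1 over its vesicle and cell arrays in a model of all 8 arrays. No gene of the 30142 passed in limma (0%), 1398 of the 30142 had an unadjusted p under 0.05, and the smallest adjusted p was 0.954. The list medians were -0.033 for oxidative phosphorylation, -0.013 for contractile genes, 0.077 for matrix, 0.036 for macrophages and 0.069 for atrial genes, each nearer to 0 than the difference between the experiments. For lung genes (median 0.32) and immediate early genes (0.21) 1 array carried the median: the lung score was 1.21 on the vesicle VTS2 array but -0.18 on both cell arrays, and the immediate early score was 0.54 on the cell VTS2 array but -0.058 on the vesicle VTS2 array, below the -0.035 of vesicle VTS1.

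Some circadian clock genes did not overlap, although the list score did. It was 0.13, 0.030 and 0.041 in experiment 9 and 0.045, 0.049, -0.0015, -0.28 and -0.0095 in experiment 1. Clock and Arntl drive Per and Cry genes, whose products repress them, and the output factors Dbp, Tef and Hlf run in the phase opposite to Arntl. Arntl stood at 5.66, 5.47 and 5.77 in experiment 9 and at 6.25, 6.16, 6.01, 7.56 and 7.13 in experiment 1 (-0.92 ± 0.24, limma adjusted p = 0.315). Dbp stood at 9.26, 9.11 and 9.06 against 8.93, 8.90, 8.91, 7.27 and 8.02 (0.69 ± 0.29, limma adjusted p = 0.407). Neither overlapped, and the cell arrays of experiment 1 were at the far end for both.

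Hlf showed the tightest difference, at 6.77, 6.62 and 6.57 against 6.42, 6.39, 6.37, 6.16 and 6.17 (0.35 ± 0.030, limma adjusted p = 0.212). Per3 stood at 7.50, 7.50 and 7.47 against 7.16, 7.14, 7.03, 6.16 and 6.56 (0.66 ± 0.18, limma adjusted p = 0.321). Without both cell arrays of experiment 1 the difference was 0.40 for Per3, 0.28 for Dbp and -0.55 for Arntl. The means of Arntl, Hlf and Per3 over the 8 arrays lay under the negative-control limit, and that of Dbp above it. Clock overlapped through the experiment 1 control array, and Per1 overlapped throughout. Of all 18 clock genes 13 lay higher, with a median of 0.10, or 0.20 without either control array, and 6 (33.3%) were above and 2 below without overlap. The list holds genes of opposite phase, so its median does not describe a shift of the clock. Hours of collection are not given in the labels.

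The promoter of Per3 is shown because it carries the D-box, the site of Dbp, Tef and Hlf, on 2 occasions (capitals), beginning 205 and 158 bases before the start, GRCm38.p6 chr4:151044666-151044915, minus strand.

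Per3: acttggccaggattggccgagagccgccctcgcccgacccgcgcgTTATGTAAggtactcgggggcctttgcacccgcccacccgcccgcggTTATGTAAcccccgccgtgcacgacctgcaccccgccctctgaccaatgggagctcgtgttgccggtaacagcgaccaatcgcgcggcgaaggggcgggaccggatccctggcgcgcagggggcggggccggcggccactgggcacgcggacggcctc

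The D-box was searched on both strands as TTATGTAA or TTACGTAA and stands in 0.931% of the 32851 windows. The windows of Dbp and Hlf held no D-box and no E-box of the form CACGTG, which stands in 6.02% of windows.

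**Figure D5:**
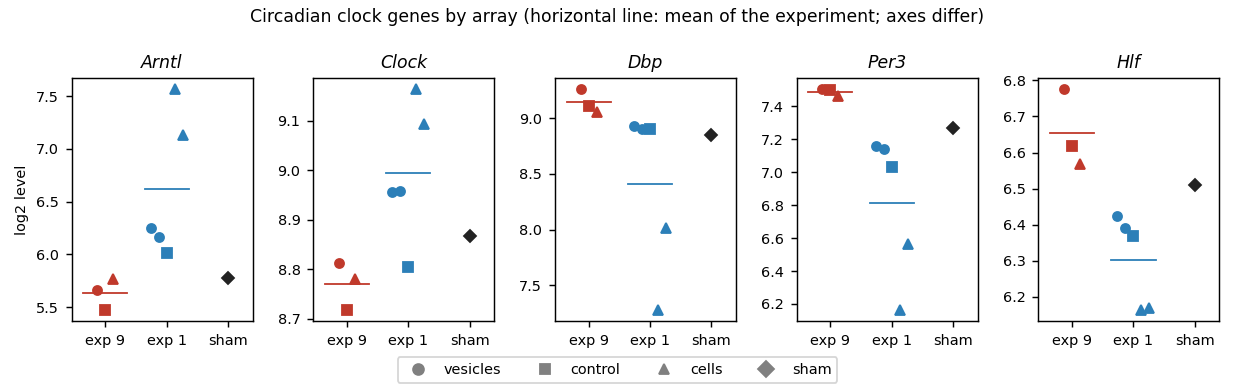
Log2 levels (y axes, which differ between panels) of 5 clock genes in experiment 9, experiment 1 and the sham heart (x axis); symbols give the treatment and lines the mean of an experiment. Per3 stands between 7.47 and 7.50 on the experiment 9 arrays and between 6.16 and 7.16 in experiment 1, where the cell arrays (triangles) are lowest.

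The protein-coding genes above the negative controls with the lowest p in each direction named a few more. Higher in experiment 9 without overlap were Ptprm, a receptor phosphatase at cell contacts (9.39, 9.26 and 9.31 against 9.04 to 9.18, 0.20 ± 0.017), Gstk1, a glutathione transferase of mitochondria and peroxisomes (9.28, 9.34 and 9.43 against 8.92 to 9.20, 0.27 ± 0.033), and Chrm2, the muscarinic receptor of the heart (8.75 to 8.81 against 8.64 to 8.68, 0.13 ± 0.015). Rpl3l, the ribosomal protein of striated muscle, differed by 0.13 ± 0.016, and Acsf2, a mitochondrial acyl-CoA synthetase, by 0.22 ± 0.023. Lower without overlap were Grk5, a receptor kinase that dampens adrenergic signalling (8.70, 8.60 and 8.59 against 8.80 to 8.94, -0.23 ± 0.020), Tspo, a mitochondrial outer membrane protein abundant in activated macrophages (7.34 to 7.38 against 7.51 to 7.65, -0.22 ± 0.023), and Il4ra, the interleukin 4 receptor (7.46 to 7.56 against 7.65 to 7.81, -0.20 ± 0.029). All of these had a limma adjusted p of 0.212 or 0.213.

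The sham heart belongs to experiment 9 by its title but did not lie with its injected hearts in every group. Of the 1260 genes with every experiment 9 array above, it lay on the experiment 9 side of the midpoint between the experiment means for 479 (38%). Of the 826 genes below it did so for 307 (37.2%). Both sets were picked because the 8 compared arrays separate on them, and the sham array had no part in that choice. Their shares therefore cannot be set against the share of all genes, and nothing is concluded from them. The values of the sham heart lay nearer to the experiment 9 mean for 51.1% of all genes, and for 10 of 16 atrial genes, with Sln at 7.11 and Myl7 at 7.29. For matrix 14 of 53 genes were nearer to experiment 9, for mature scar, tendon and cartilage 3 of 30 and for macrophages 16 of 53. For oxidative phosphorylation 6 of 71 genes were nearer to experiment 9, for the citric acid cycle 1 of 24 and for fatty acid oxidation 4 of 31. Its scores there were -0.040, -0.065 and -0.097, below all 3 injected hearts of experiment 9. Its matrix score of 0.092 lay within experiment 1, and its score for mature scar, tendon and cartilage, 0.25, lay above all 8 compared arrays. The macrophage score was 0.012, with Ccl9 at 6.31. With the sham array among the controls no gene passed in limma, and 4375 of the 30142 genes had an unadjusted p under 0.05. As a single array it has no replicate, and no test was made on it alone.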

How the data were processed

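Trizol RNA of whole hearts was labelled as sense-strand target for Affymetrix arrays, per the labels' protocols. The authors deposited 1 log2 value per probe set and array, with the scale read from the values. How they corrected, summarised and normalized the arrays is not stated in any source used; the submitters' processing notes name Partek without role or version. Normalization can hide shifts common to most genes. Of 80202 probe sets 10553 are negative controls and 30604 carry 1 gene symbol, updated through RefSeq (GRCm38.p6), where 22818 matched by gene number. Of the 355 genes with several probe sets the brightest was kept, giving 30142 genes. Of these, 16535 (54.9%) have identical values on 3 or more of the 8 arrays, which narrows their spread. The number of arrays limits precision.

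limma 3.58.1 in R 4.3.3 was run (lmFit, eBayes, two-sided) with treatment and experiment as terms, with 4 residual and 1.18 prior degrees of freedom. Benjamini-Hochberg adjustment ran over the 30142 genes, with a threshold of 0.05. VTS2 was compared with VTS1 by VTS number in place of experiment. The 95th percentile of negative controls averaged 7.22 and marked dim genes. The members and the 37 lists were chosen with earlier results of these data known. Named genes are up to 12 protein-coding genes above the controls per direction without overlap, by lowest p where none passed, up to 4 per list and a set of heart, scar, macrophage and clock genes. Tcap, Xirp1, Thbs1, Lyz2, Tnnt2, Ryr2, Atp2a2, Dkk3, Mybphl, Myl9, C1qb, Mrc1, Csf1r and the promoters were chosen after their values were seen. Promoters are 250 bases from RefSeq. Replicates were numbered by accession, which pairs no arrays. Steps were tested on simulated data. Alternatives changed the treatment block, VTS arrays, sham, scaling, moderation, filters and probe choice, and left out each array. Leaving out both cell arrays of experiment 1 was added after seeing the data.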

Additional observations from a re-analysis of the deposited data

Results flagged for a closer look

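Single arrays of experiment 1 lay far from the other 4, the gap to the next array being over 71.0% of the group's range; chance alone does this in about 1 group in 20. The vesicle VTS2 array was high for lung genes (score 1.21, Sftpc 9.75) and for epicardial and mesothelial genes (0.21). The cell VTS2 array was high for immediate early (0.54), heat shock and oxidative stress (0.31), hypoxia (0.15) and cardiac transcription factor genes (0.10), and for calcium handling and ion channel genes (0.027), with Myh7 low at 10.58. The cell VTS1 array was low for clock genes (-0.28) and for Col1a1 (9.02). The control array was high for T and NK lymphocyte genes (0.15) and low for lymphatic endothelial genes (-0.088), Asb15 (8.84) and Cobll1 (8.25).

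For 4 lists experiment 9 minus the mean of experiment 1 had opposite signs among vesicle and cell arrays, a difference that was not tested. The score differences for vesicles and for cells were 0.019 and -0.082 for glycolysis, 0.023 and -0.10 for endothelial genes, 0.15 and -0.016 for blood genes, and 0.031 and -0.39 for immediate early genes. The sham heart, outside the comparison, had a mature scar, tendon and cartilage score of 0.25, above all 8 compared arrays.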

How the results depend on the processing

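No gene passed in limma in any alternative except 2 settings: 2 passed without moderation (Kbtbd2 and Slc38a5) and 2 among genes not tied on 3 or more arrays (Sln and Myl7). With quantile normalization the medians were 0.0090 for contractile genes, 0.050 for oxidative phosphorylation, 0.028 for the citric acid cycle and 0.045 for fatty acid oxidation, and the ribosomal protein median was -0.0082, Pdha1 -0.017, Eno3 -0.0046 and Myh7 -0.044. The mature scar median was -0.33 above the negative controls, -0.20 above the median gene and -0.33 among genes not tied, where the atrial median was -0.23 and that of skeletal muscle 0.071. Atrial genes had -0.091 without both cell arrays of experiment 1, and -0.21 to -0.091 when each array was left out in turn. The cause was not tested.

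Single genes near 0 turned direction. With VTS1 arrays alone Eif2s3y was -0.040 and Myh7 -0.055; with VTS2 arrays alone Slc4a1 was 0.0082, Uty 0.069, Per1 -0.010 and Kdm5d 0.086; with the sham among controls Kdm5d was 0.0071; without both cell arrays of experiment 1 Eif2s3y was -0.066 and Myh7 -0.043. Leaving out each array gave ranges of -0.10 to 0.0052 for Slc4a1, -0.30 to 0.013 for Pdk4, -0.20 to 0.060 for Uty, -0.095 to 0.066 for Kdm5d, -0.066 to 0.25 for Eif2s3y and -0.043 to 0.060 for Myh7. No paired analysis was possible because every title gives the same replicate number. Dim signal limits the macrophage, class II antigen presentation, nerve and lymphocyte lists, whose members mostly lie under the negative-control limit.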

Other observations

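Several gene groups outside the muscle, scar and macrophage comparison are given as values. Of 28 immediate early genes, which respond within minutes to stress and to tissue handling, 24 lay lower in experiment 9, with a median of -0.16 that was -0.27 without the experiment 9 vesicle array, -0.020 without the experiment 9 cell array and -0.071 without the cell VTS2 array. Of 24 cytosolic ribosomal protein genes 19 lay higher, with a median of 0.028, or 0.0059 without the experiment 9 cell array. Of 31 cell cycle genes 26 lay lower (median -0.048), with none above the negative controls. The 36 interferon response genes had a median of -0.029, the 22 heat shock and oxidative stress genes -0.044 and the 22 hypoxia genes -0.063. Within experiment 1 the interferon score ran from -0.47 on the vesicle VTS1 array to 0.48 on the cell VTS1 array. The interferon median ran from -0.12 to 0.025 when each array was left out.

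Lymphocyte, thymus and granulocyte groups were dim, which limits what they show. None of the 14 B lymphocyte genes (median -0.043), 21 T and NK lymphocyte genes (-0.071), 20 granulocyte and mast cell genes (-0.043) or 10 thymus genes (-0.024) stood above the negative controls. The 16 adipose genes had a median of -0.057, the 8 lymphatic endothelial genes -0.069 and the 6 blood genes -0.036. The 4 sex-linked genes had a median of -0.015. Xist stood between 3.92 and 3.97 on all 9 arrays. The Y-linked gene Uty stood at 6.46 on the experiment 9 control array and between 6.98 and 7.21 on the other 8 arrays, Kdm5d at 5.96 against 6.26 to 6.44, and Eif2s3y at 6.70 against 6.91 to 7.43.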
